A study of Mus musculus with 4 samples.

Results

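The genes described here build, move along or organise the cytoskeleton: tubulins and the gamma-tubulin complex, kinesins, dyneins and dynactin, myosins, the Arp2/3 complex and other actin-related proteins, and proteins of the centrosome and of augmin. They were chosen by name, as every listed gene whose NCBI symbol starts with Tuba, Tubb, Tubg, Kif, Dnah, Dync, Dctn, Myo and a digit, Myh, Myl and a digit, Actr, Actn, Arpc, Cep and a digit, or Haus. This gave 74 of 5059 listed genes and 143 of 8219 listed transcripts. Poly(A) RNA was sequenced from granulocyte-monocyte progenitors (GMPs) of the bone marrow, from which neutrophils and monocytes arise, of wild-type mice and of mice labelled MST1 deficient. Each group had 2 libraries, each from cells of 10 pooled mice, and the cells of both groups were kept in medium with serum and given no drug. No source used here gives the allele, the strain or the age and sex of the mice. The deposited lists hold transcripts outside the reference annotation, so every value is that of such unannotated forms, and the annotated ones were not analysed here. Where values are set against each other, wild type comes first, MST1-deficient second, and replicate 1 before replicate 2.

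Microtubules are polymers of alpha- and beta-tubulin that grow from gamma-tubulin rings at the centrosome, and augmin adds new branches to them in the mitotic spindle. Kinesins and dyneins walk along microtubules, while myosins pull on actin filaments, which the Arp2/3 complex branches. In myeloid cells this machinery divides the progenitors and moves their descendants through tissue. MST1 is a kinase of the Hippo pathway, taken here to be the product of the mouse gene Stk4.

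The labels alone define the groups, because the lists held 0 transcripts of Stk4 and 0 of its relative Stk3. Listed estimated counts ranged from 928977 to 1079382 per library, which was between 11.8% and 13.5% of the library totals implied by the FPKM values. Only 4 of 17 marker genes of myeloid progenitors had an unannotated form, and Mpo, Elane and Csf1r were at 0 throughout, so these lists do not check the labelled cell type. The Y-chromosome genes Kdm5d, Uty, Ddx3y and Eif2s3y summed to 3.6 and 0 FPKM in the wild-type pools against 23.4 and 14.8 in the MST1-deficient pools. Markers of eosinophils, basophils and mast cells (4 of 9 listed; Prg2, Epx, Fcer1a, Cpa3 and Mcpt8 at 0) summed to 151 and 190 FPKM in wild type against 113 and 126. The listed genes were Gata2, Ms4a2, Alox15 and Prg3, each lower in both MST1-deficient pools. Gata2 held the largest part, with 74.2 and 78.9 FPKM in wild type against 64.4 and 63.0. Erythroid markers (4 of 10 listed; Gata1, Klf1 and Epor at 0) summed to 19.4 and 26.4 FPKM against 13.9 and 4.43, while the sums for B cells, for T and NK cells and for megakaryocytes overlapped between the groups. Of the erythroid genes, Sptb had 13.8 and 15.8 FPKM against 7.89 and 2.91. Ank1 overlapped between the groups, with 5.33 and 10.5 FPKM against 5.69 and 1.52, and Hbb-bs and Tfrc did not exceed 0.27. The part of these differences in the results below was not tested. The Y-chromosome sums did not overlap between the groups. An effect of the sex make-up of the pools therefore cannot be told apart from one of genotype. In these bulk samples, fewer cells of a type and less RNA per cell cannot be told apart.

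Summed over their forms, Myl12a and Cep85 were far higher in MST1-deficient libraries, and Dnah8 had the largest difference in the other direction among the cytoskeletal genes tested. Of the 74 genes, 46 reached 1 FPKM (estimated reads scaled to transcript length and library size) in at least 2 of the 4 libraries and were tested; the other 28 did not. The median log2 fold change of these 46, MST1-deficient against wild type, was -0.045, beside 0.013 over all 3221 genes tested, with 20 positive (43.5%) and 26 negative; over all genes 51.1% were positive. None of the 46 passed the threshold of edgeR's quasi-likelihood test (adjusted p under 0.05, background 0.0% of all genes tested). An unadjusted p under 0.05 was found for 3 (6.52%), where the background was 5.65%. Of these, Cep85 and Myl12a were higher in MST1-deficient libraries (background 3.01%) and Dnah8 was lower (background 2.64%). DESeq2 called the same 3 genes, against a background of 1.43% (0.683% higher, 0.745% lower). With limma on log2(FPKM + 0.5) the calls were Cep85 and Myl12a, both higher, and 0 lower, against a background of 0.155% (0.0621% higher, 0.0931% lower). Cep85, Myl12a and Dnah8 are named by the selection itself, so these shares are no independent result about the set. Both MST1-deficient libraries lay above both wild-type ones in 5 of the 46 gene sums and below them in 7. Over all genes tested, 14.1% lay above and 18.8% below in this way, so the shares of the set (10.9% and 15.2%) were not above the background. The p-values measure the spread between 2 pools a group, and whether the pools were prepared separately is not given. An adjusted p above the threshold does not show that the genotypes were alike.

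**Figure D1:**
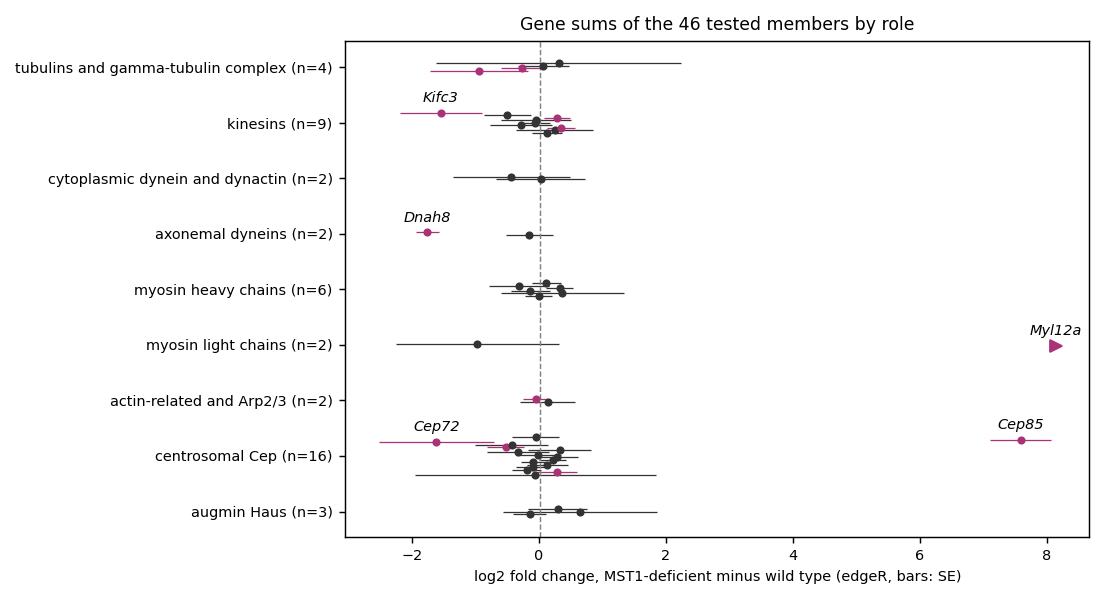
The horizontal axis gives the edgeR log2 fold change of each tested gene sum (MST1-deficient minus wild type, bars: SE), the vertical axis the role of the gene, and the dashed line the median of all genes tested. Purple marks gene sums whose groups did not overlap in FPKM, and the triangle is the lower bound for Myl12a; Cep85 and Myl12a lie far to the right, Dnah8, Kifc3 and Cep72 to the left, and most others between -1 and 1.

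Cep85 encodes a centrosomal protein that binds the mitotic kinase Nek2. Its single listed form (novel_T006882) had 3.24 and 1.11 FPKM in wild type against 459 and 344 in the MST1-deficient pools. Both MST1-deficient libraries were thus high and both wild-type libraries near 0. The estimated counts were 21.4 and 6.86 against 2627 and 2461. For the gene sum the log2 fold change was 7.58 (SE 0.48, edgeR adjusted p = 0.112; between 1.43e-82 and 0.438 over the alternatives). Without wild-type replicate 1, the higher of the 2 low libraries, the log2 fold change was 8.40. The gene (NCBI 70012) lies on chromosome 4 from 134129858 to 134187085 in GRCm38, the build also called mm10. The form is 967 bases long. GENCODE M21 holds 9 transcripts of Cep85, from 308 to 3893 bases, of which the 2 coding ones have 3748 and 3893 bases. None of the 50-base words of the longest coding transcript occurs in a transcript of another gene. The sequence of the listed form is not given, so its own words could not be searched.

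Myl12a codes for a regulatory light chain of myosin II in non-muscle cells, the motor that contracts the cell cortex. Its 1 listed form (novel_T004294, 1321 bases) was missing (0 FPKM) from both wild-type lists and reached 114 and 67.8 FPKM in the MST1-deficient pools. In counts these were 934 and 690.02. As a gene sum Myl12a was at least 281-fold above a floor of 3 counts per library (edgeR adjusted p = 0.112; between 2.8e-13 and 0.438 over the alternatives). Tested among single forms, the same counts gave an edgeR adjusted p of 0.296 (between 5.94e-13 and 0.946 over the alternatives). The gene (NCBI 67268) lies on chromosome 17 from 70993793 to 71002533. Of the 50-base words of its longest coding transcript, 29.2% also occur in its neighbour Myl12b, which encodes a near-identical light chain and has no listed form. Myl4, an essential light chain of atrial and embryonic muscle and the other light chain gene of the set, had 10.1 and 0.88 FPKM in wild type against 4.29 and 1.06. Its values overlapped between the groups and lay far apart within each group.

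The listed forms of Tuba1a, an alpha-tubulin gene (NCBI 22142, chromosome 15, 98949847 to 98953501), exchanged rank between libraries. One form of 1555 bases (novel_T003298) had 363 and 457 FPKM in wild type against 74.0 and 62.0. The groups were far apart (log2 fold change -2.55, SE 0.27, edgeR adjusted p = 0.376; between 3.89e-18 and 0.946 over the alternatives). A second form of the same length (novel_T003299) was at 0 in wild type, at 3.28 FPKM in MST1-deficient replicate 1 and at 245 in MST1-deficient replicate 2. It made up 4.24% and 79.8% of the Tuba1a FPKM in these libraries. The second form thus set the 2 MST1-deficient pools far apart, while the first was low in both. Summed over both forms, Tuba1a had 363 and 457 FPKM in wild type against 77.3 and 307 in MST1-deficient libraries. For the sum the log2 fold change was -0.94 (SE 0.77, edgeR adjusted p = 0.992; between 0.182 and 1.0 over the alternatives). It was -0.21 without MST1-deficient replicate 1 and -2.52 without replicate 2 of that group, so the size of the difference in the sum rests on which pool is kept. Of the 50-base words of the annotated transcript, 72.9% occur in transcripts of other genes. Tuba1c holds 46.9% and Gm17383 46.6% of the words, and a word found in both counts for each. The assignment of reads among genes that share these words is uncertain.

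**Figure D2:**
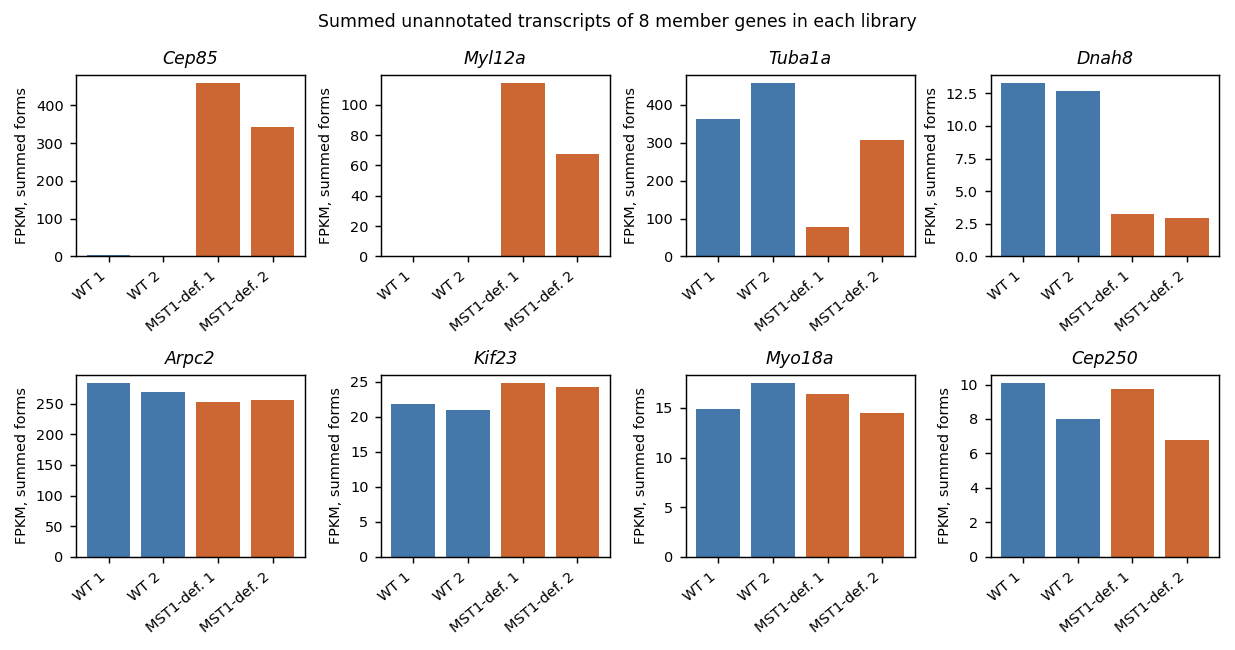
Bars give the summed FPKM of the listed forms of 8 genes in each library, wild type in blue and MST1-deficient (MST1-def.) in orange, each vertical axis starting at 0. Cep85 and Myl12a stand at or near 0 in wild type, Dnah8 is lower in both MST1-deficient libraries, MST1-deficient replicate 1 is lowest for Tuba1a, and Arpc2, Kif23, Myo18a and Cep250 are level within 1.5 times.

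Dnah8 encodes a heavy chain of axonemal dynein, the motor of cilia and sperm tails. Summed over 5 listed forms it had 13.3 and 12.7 FPKM in wild type against 3.23 and 2.98. The replicates lay close together and the groups far apart (log2 fold change -1.76, SE 0.18, edgeR adjusted p = 0.175; between 1.87e-12 and 0.979 over the alternatives). The form of 7939 bases had 7.37 and 8.16 FPKM against 0.48 and 1.54, and the form of 14635 bases had 3.17 and 2.51 against 0.95 and 0.45. A form of 16101 bases had 1.61 and 1.88 FPKM against 0 and 0.25. These 3 forms were lower in both MST1-deficient libraries. The longest form, of 16218 bases, overlapped between the groups, with 1.12 and 0 FPKM in wild type against 1.65 and 0.74. It made up 8.44% and 0% of the Dnah8 FPKM in wild type against 51.1% and 24.8%. The gene (NCBI 13417) lies on chromosome 17 from 30626935 to 30875762. None of the 50-base words of its longest coding transcript is found in another gene, while the listed forms themselves could not be searched. Among 12 markers of ciliated cells only Ccdc40 was listed, at 2.84 and 2.29 FPKM in wild type against 1.67 and 1.75, and Foxj1, Dnai1 and Dnai2 were at 0. Dnah6 and Dnah17, the other axonemal heavy chains listed, overlapped between the groups, Dnah6 with 2.37 and 1.57 FPKM against 2.34 and 1.17 and Dnah17 with 0.5 and 0.89 against 1.11 and 0.75.

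The promoters of these 4 genes are shown because the selection of the set names these genes; where the unannotated forms themselves start is not given. The sequences are RefSeq's, on GRCm38.p6, from 250 bases before to 50 bases after the annotated start, 5′ to 3′ on the strand of the gene. Capitals mark the motifs found among 5 searched on both strands: GGAATG, the core bound by the TEAD factors of the Hippo pathway, the CCAAT box, the TATA box written as TATAAA, the cell cycle gene homology region written as TTTGAA, and the CArG box of serum response factor. A CArG box can hold CCAAT or TATAAA within it, and the other motifs do not contain one another.
Cep85 (chr4:134187036-134187335, minus strand): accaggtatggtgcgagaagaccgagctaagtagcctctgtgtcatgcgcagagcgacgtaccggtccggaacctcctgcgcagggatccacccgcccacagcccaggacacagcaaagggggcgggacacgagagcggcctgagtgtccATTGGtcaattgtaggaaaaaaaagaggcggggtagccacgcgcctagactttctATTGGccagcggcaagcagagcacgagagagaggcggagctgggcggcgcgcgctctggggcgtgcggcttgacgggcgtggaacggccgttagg
Myl12a (chr17:71002484-71002783, minus strand): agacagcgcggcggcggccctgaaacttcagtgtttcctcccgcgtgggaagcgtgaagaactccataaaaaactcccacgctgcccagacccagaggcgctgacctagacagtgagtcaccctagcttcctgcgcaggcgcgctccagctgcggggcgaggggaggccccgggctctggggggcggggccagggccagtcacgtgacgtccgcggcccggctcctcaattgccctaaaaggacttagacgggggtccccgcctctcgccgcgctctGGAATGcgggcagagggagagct
Tuba1a (chr15:98953452-98953751, minus strand): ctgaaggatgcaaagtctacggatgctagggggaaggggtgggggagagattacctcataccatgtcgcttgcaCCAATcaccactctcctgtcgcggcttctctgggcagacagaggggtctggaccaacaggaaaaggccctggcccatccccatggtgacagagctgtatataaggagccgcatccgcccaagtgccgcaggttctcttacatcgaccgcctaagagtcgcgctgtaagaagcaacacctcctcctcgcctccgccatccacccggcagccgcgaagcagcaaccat
Dnah8 (chr17:30626686-30626985, plus strand): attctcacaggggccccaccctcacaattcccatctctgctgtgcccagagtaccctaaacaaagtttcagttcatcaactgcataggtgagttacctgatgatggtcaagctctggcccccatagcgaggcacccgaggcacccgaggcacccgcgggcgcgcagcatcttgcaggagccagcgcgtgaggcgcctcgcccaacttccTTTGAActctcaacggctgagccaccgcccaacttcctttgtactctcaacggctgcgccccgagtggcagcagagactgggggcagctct
Cep85 held CCAAT 2 times on the opposite strand (ATTGG), Myl12a held GGAATG, Tuba1a CCAAT and Dnah8 TTTGAA. A promoter was found for 63 of the 74 genes (73 promoters). GGAATG stood in 17.8% of these and in 14.7% of all 32851 promoters of the table. CCAAT stood in 37.0% against 37.4%, TTTGAA in 23.3% against 17.9%, TATAAA in 6.85% against 13.6%, and the CArG box in 1.37% against 1.63%. A match of letters is a description and not a binding site.

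Among the other tubulin-related genes, those of the gamma-tubulin complex, which nucleates microtubules, were low. Tubgcp3 had 3.01 and 2.45 FPKM in wild type against 2.2 and 2.1, a small difference without overlap (edgeR adjusted p = 0.992). Tubgcp4 had 1.83 and 1.11 against 1.62 and 1.43 FPKM and overlapped. Tubgcp6 had 0.39 and 1.04 FPKM against 0 and 1.57, so it was listed in 1 of 2 MST1-deficient libraries. No gene of beta-tubulin (8 in RefSeq) had a listed form, and Tuba1a was the only one of 8 alpha-tubulin genes, whereas 6 of 7 genes starting with Tubg were listed. Over all families of the rule 34.6% of the RefSeq coding genes had a listed form, beside 22.6% of all coding genes.

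Kinesins gave 9 tested genes of 18 listed, and their log2 fold changes ranged from -1.55 to 0.35. Kif23, a subunit of the centralspindlin complex that directs cytokinesis, was the most abundant, with 21.8 and 20.9 FPKM in wild type against 24.8 and 24.3. Both MST1-deficient values lay above both wild-type ones, by 0.28 in log2 fold change (SE 0.20, edgeR adjusted p = 0.992). Kif21b, which restrains microtubule growth, had 16.1 and 6.66 FPKM against 15.9 and 5.85. The groups overlapped, and replicate 1 lay far above replicate 2 in each genotype. Kif2a, a kinesin that shortens microtubules, had 9.22 and 11.3 FPKM against 9.7 and 4.55, lowest in MST1-deficient replicate 2. Kifc3, a kinesin that walks toward minus ends, was chosen after its values were seen: it had 7.33 and 4.8 FPKM against 3.36 and 0.86, with no overlap (log2 fold change -1.55, SE 0.64, edgeR adjusted p = 0.912).

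Cytoplasmic dynein and its activator dynactin were barely represented, with 2 tested genes of 6 listed. Dctn2, which encodes dynamitin, had 2.06 and 0.82 FPKM in wild type against 1.8 and 1.01. Dctn3, another dynactin subunit, had 2.18 and 0.71 FPKM against 1.6 and 0.56, spread over 5 forms of 999 to 1306 bases. Dync1i2, an intermediate chain of dynein, had between 0.24 and 0.43 FPKM and was not tested. Both dynactin genes overlapped between the groups, with replicate 1 above replicate 2 in each genotype. Of the Dctn3 forms, that of 999 bases was listed in wild type alone, at 0.34 and 0.18 FPKM. These were 2.33 and 1.12 estimated counts, below the floor of 3 counts per library. Its absence from the MST1-deficient lists therefore says nothing about genotype.

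Myosin heavy chains overlapped between the groups in all 6 tested genes of 12 listed, with log2 fold changes from -0.32 to 0.37. Myo18a, an unconventional myosin of the Golgi and cytoskeleton, had 14.9 and 17.5 FPKM in wild type against 16.4 and 14.5. Myo9b had 9.17 and 9.98 FPKM against 12.5 and 8.04. Myo5a, a vesicle transporter, had 8.68 and 6.9 FPKM against 11.7 and 7.34. The heavy chains of non-muscle myosin II, partners of the Myl12a product, were looked up after its values were seen and were low: Myh9 had 0.69 and 0.36 FPKM against 0.57 and 1.2, and Myh10 was listed in wild-type replicate 1 alone at 0.09.

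Among genes of actin branching and actin-related proteins, 2 of 4 listed genes were tested. Arpc2, a core subunit of the Arp2/3 complex, had 283 and 269 FPKM in wild type against 252 and 256. The groups did not overlap, yet the log2 fold change was -0.05 (SE 0.20, edgeR adjusted p = 0.994). Arpc1b, the Arp2/3 subunit typical of blood cells, had 0.86 and 0.68 FPKM against 2.79 and 0.69 over 4 forms, none of them in all libraries, and was not tested. Actr5, an actin-related protein of a chromatin remodeller, had 4.83 and 2.53 FPKM against 4.32 and 3.39. The 3 listed augmin genes overlapped between the groups: Haus3 had 5.64 and 4.3 FPKM against 5.09 and 3.58, and Haus7 had 2.48 and 3.03 against 3.71 and 2.88. Haus5 had 2.13 and 0.55 FPKM against 3.95 and 0.36, far apart within both genotypes. Of the 50-base words of its longest coding transcript, 78.3% occur in other genes.

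Beside Cep85, the centrosomal genes gave the largest family. Of its 37 forms with at least 1 FPKM in a library, 3 (8.11%) had that level in both wild-type libraries and 0 in both MST1-deficient ones, beside 0.981% of all transcripts, and 1 (2.7%) showed the reverse, beside 0.642%. The 3 are forms of Cep63, Cep295 and Cep55, the only ones of this kind in the set, and the 1 is of Cep57l1. They are counted again for the whole set below, and each reached 1 FPKM in 1 group alone. No other role group was counted in this way. The family share is therefore no separate result and no independent result about centrosomal genes. Within wild type, 4 of the 37 (10.8%) had at least 1 FPKM in 1 library and 0 in the other, beside 8.65% of all, as did 4 within the MST1-deficient group, beside 10.5%. The family had 16 tested genes of 19 listed, with a median log2 fold change of -0.056. Cep250, a linker between centrioles, had 10.1 and 7.98 FPKM in wild type against 9.74 and 6.77 over 7 forms. Its main form of 8980 bases had 5.79 and 5.81 FPKM against 5.79 and 3.4. Cep164, a protein of the distal appendages that anchor cilia, had 8.47 and 7.37 FPKM against 7.82 and 5.68 over 5 forms. Its form of 3738 bases hardly varied, with 1.05 and 1.01 FPKM against 1.08 and 1.08, while its share of the Cep164 FPKM was 12.4% and 13.7% against 13.8% and 19.0%. Its form of 5635 bases took 15.0% and 8.82% against 0% and 6.51%. Cep72, chosen after its values were seen, had 2.61 and 2.29 FPKM against 0.27 and 1.15 (log2 fold change -1.62, SE 0.90, edgeR adjusted p = 0.945).

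Among single forms, 71 of 143 were tested, and none passed the edgeR threshold (background 0.0% of all transcripts tested; the lowest adjusted p in the set was 0.296). An unadjusted p under 0.05 was found for 9 of 71 (12.7%), where the background was 5.26%. Of these, 3 were higher in MST1-deficient libraries (4.23%, background 2.27%) and 6 lower (8.45%, background 2.98%). DESeq2 called the same 9, against a background of 2.15% (1.07% in each direction). With limma 1 form was called, a higher one, against a background of 0.107% (0.0858% higher, 0.0215% lower). The 9 were those of Cep85 and Myl12a, novel_T003298 of Tuba1a, the Dnah8 forms of 7939 and 14635 bases, and 1 form each of Cep63, Cep295, Cep55 and Cep57l1. Cep85, Myl12a, Tuba1a and Dnah8 are named by the selection itself. The forms of Myl12a, Cep63, Cep295, Cep55 and Cep57l1 and the Dnah8 form of 14635 bases reached 1 FPKM in 1 group alone. The share of 12.7% is therefore no independent result about the set. Groups did not overlap in 9 forms that were higher and 16 that were lower in MST1-deficient libraries, which is 12.7% and 22.5% beside 13.7% and 19.9% of all transcripts tested. The median log2 fold change of the 71 was -0.059, beside -0.0065 over all transcripts, and 30 of 71 (42.3%) were positive, beside 49.4%.

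Cep63, which acts in centriole duplication, had 2 listed forms. That of 2578 bases was listed in wild type alone, at 3.23 and 1.82 FPKM, and was at least 15.03-fold lower in counts in MST1-deficient libraries (edgeR adjusted p = 0.418; between 0.0312 and 0.946 over the alternatives). It made up 27.1% and 13.4% of the Cep63 FPKM in wild type. A form 33 bases shorter carried the rest, with 8.69 and 11.7 FPKM against 8.85 and 8.22. The Cep63 sum was 11.9 and 13.6 FPKM against 8.85 and 8.22, without overlap (log2 fold change -0.53, SE 0.29, edgeR adjusted p = 0.943).

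Cep295, which turns new centrioles into centrosomes, had 3 listed forms, of which 2 differ by 4 bases in length. The form of 7607 bases stood at 1.58 and 2.28 FPKM in wild type and at 0 in each MST1-deficient pool, at least 35.9-fold lower in counts (edgeR adjusted p = 0.397; between 0.0001 and 0.946 over the alternatives). The form of 7611 bases had 3.06 and 1.1 FPKM against 5.75 and 3.29. Together with a form of 12390 bases the sum was 6.2 and 4.91 FPKM against 7.53 and 4.98, so the groups overlapped in the sum.

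Cep55, which acts in the last cut of cell division, had 8.68 and 18.4 FPKM in wild type against 10.7 and 10.6. Its form of 2754 bases stood at 1.34 and 3.41 FPKM against 0 and 0, at least 15.65-fold lower in counts (edgeR adjusted p = 0.464; between 0.041 and 1.0 over the alternatives). Without wild-type replicate 2 the bound was 8.28-fold. In Cep57l1, a relative of the centrosomal gene Cep57, the form of 2229 bases stood at 0 and 0 FPKM against 2.1 and 4.09, at least 17.9-fold higher (edgeR adjusted p = 0.464; between 0.0217 and 0.946 over the alternatives). Without MST1-deficient replicate 2 the bound was 10.5-fold. This form made up 37.6% and 80.4% of the Cep57l1 FPKM in MST1-deficient libraries. The form of 2320 bases went the other way, from 74.5% and 45.4% in wild type to 14.7% and 0%. The sums of both genes overlapped between the groups.

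**Figure D3:**
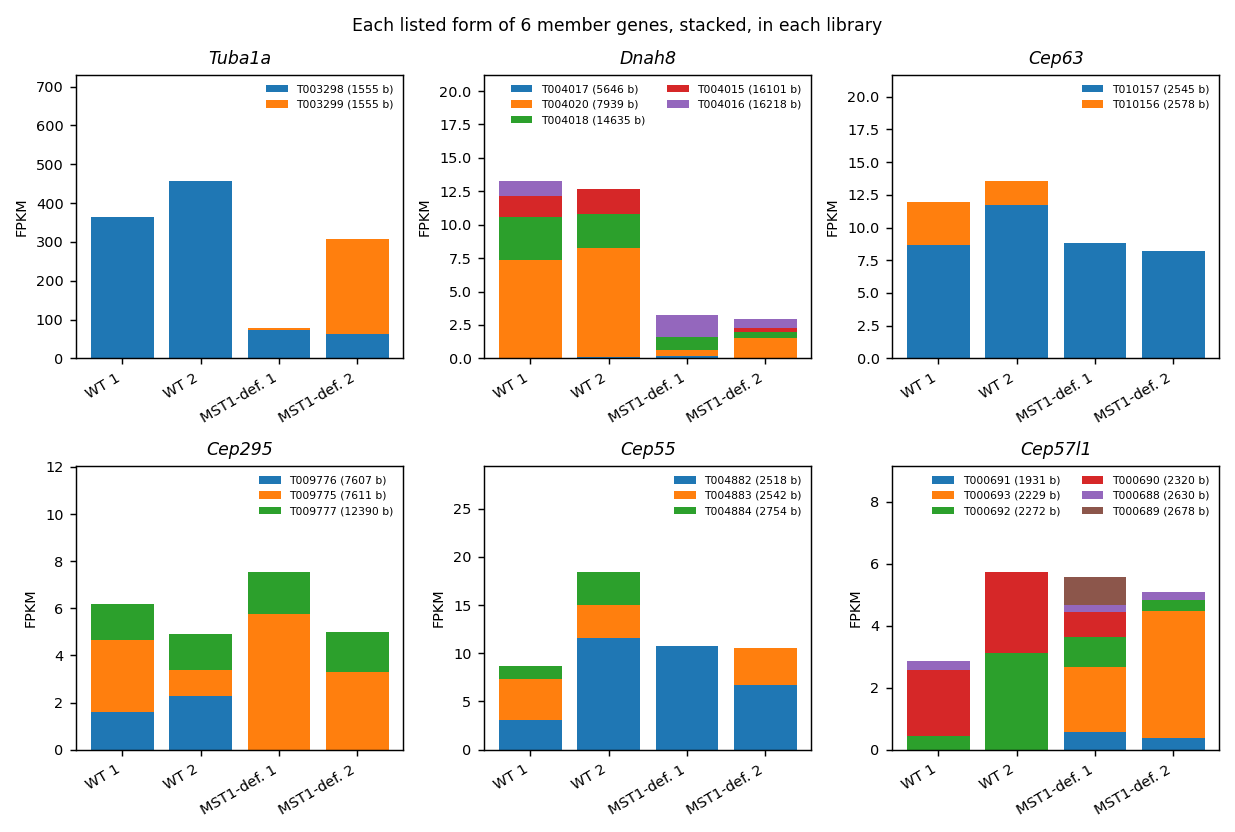
Stacked bars give the FPKM of each listed form of 6 genes in each library (WT, wild type; MST1-def., MST1-deficient), with the form's number and length in bases in the legend and vertical axes starting at 0. The orange Tuba1a form (T003299) stands at 245 FPKM in MST1-deficient replicate 2, and 1 form each of Cep63, Cep295 and Cep55 is present in both wild-type libraries and in neither MST1-deficient one.

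Forms also came and went between pools of the same genotype. Of 89 forms in the set with at least 1 FPKM in some library, 3 (3.37%) had this level in both wild-type libraries and 0 in both MST1-deficient ones, and 3 (3.37%) showed the reverse, beside 0.981% and 0.642% of all 5604 such transcripts. The first 3 are the Cep63, Cep295 and Cep55 forms already counted in the centrosomal family. The reverse was shown by forms of Cep57l1, also counted there, and of Myl12a and Tuba1a, genes that the selection names. All these forms reached 1 FPKM in 1 group alone, so their shares are no independent result about the set. Within wild type 11 (12.4%) had at least 1 FPKM in 1 library and 0 in the other, beside 8.65% of all. Within the MST1-deficient group 11 (12.4%) did so, beside 10.5% of all. In Kif1b, a transporter of organelles that was chosen after its values were seen, the form of 10087 bases had 4.36 and 0 FPKM in wild type against 6.14 and 2.82. The form of 9835 bases had 0 and 4.75 FPKM in wild type against 0 and 2.15. The Kif1b sum was 4.36 and 4.75 FPKM against 6.14 and 4.97. Both MST1-deficient sums lay above both wild-type ones (log2 fold change 0.35, SE 0.21, edgeR adjusted p = 0.972). The forms alternated between the wild-type libraries, while both were listed in MST1-deficient replicate 2.

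In the 25 tested genes with several forms, the median absolute log2 difference between the 2 wild-type libraries was 0.311 for gene sums and 0.427 for the 50 tested forms, on log2(FPKM + 0.5). Between the MST1-deficient libraries it was 0.36 and 0.675. The median difference between group means was 0.539 for the forms and 0.197 for the gene sums. With genes of 1 form included, it was 0.401 over the 71 tested forms of the set, beside 0.36 over all transcripts tested. For gene sums it was 0.21 over the 46 of the set, beside 0.289 over all genes tested. Over all transcripts tested, the medians within wild type and within the MST1-deficient group were 0.441 and 0.587. Means of 2 libraries vary less than single libraries, so differences within and between groups cannot be set against each other directly. Within each genotype, sums were closer between pools than forms were. None of the 142 forms of the 73 genes found in GENCODE M21 had the length of an annotated transcript of its gene.

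**Figure D4:**
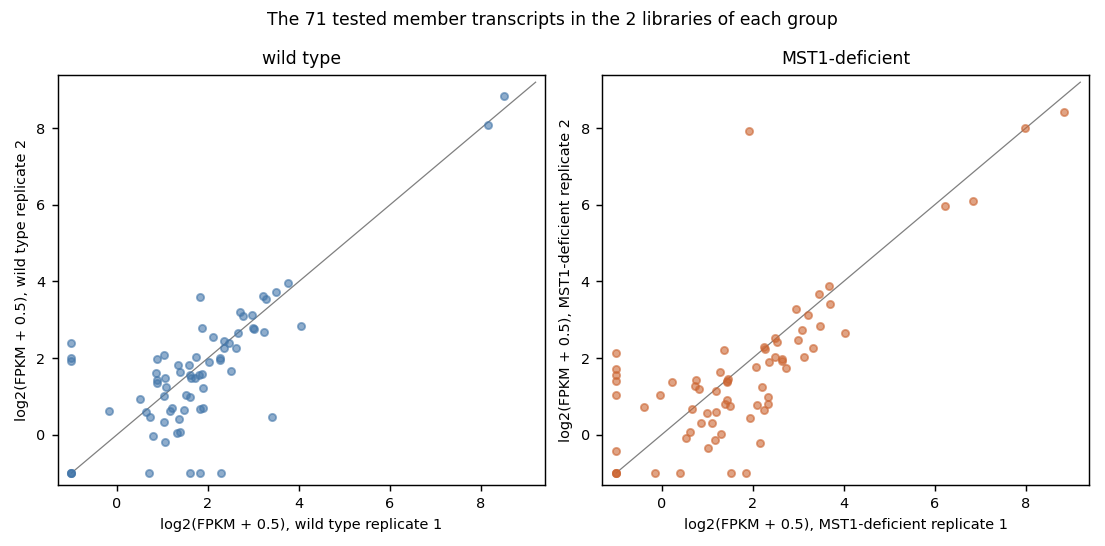
Each point is 1 of the 71 tested forms, with its log2(FPKM + 0.5) in replicate 1 on the horizontal and in replicate 2 on the vertical axis, for wild type (left) and MST1-deficient (right); the line marks equality. Points on the edges at -1 are forms at 0 in a library, and the lone point high on the left of the MST1-deficient panel is novel_T003299 of Tuba1a.

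Partners of these proteins outside the named families gave no call either (edgeR; background 0.0%, and 5.65% at an unadjusted p under 0.05). Of 43 actin assembly genes 16 were listed and 11 tested, with 6 positive and 5 negative differences, a median log2 fold change of 0.053 and 0 at an unadjusted p under 0.05. Of 39 microtubule and motor partners 16 were tested (7 positive, 9 negative, median -0.15), and 1 had an unadjusted p under 0.05: Klc4, a kinesin light chain, had 9.1 and 7.02 FPKM in wild type against 2.83 and 2.97 (log2 fold change -1.24, SE 0.34, edgeR adjusted p = 0.673). Of 42 centrosome and spindle partners 19 were tested (9 positive, 10 negative, median -0.0074), and 1 was under that p: Odf2, a protein of centriolar appendages, had 11.02 and 9.38 FPKM against 17.1 and 18.3 (log2 fold change 0.87, SE 0.24, edgeR adjusted p = 0.693). Both were named after their values were seen.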

How the data were processed

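The authors deposited, for each library, a list of unannotated transcripts with an estimated count (expected count, not normalised) and an FPKM, that is, the count scaled to length and depth, as named in the columns per the file headers. Per the submitters' processing notes the build was mm10; which aligner, assembler, estimator and annotation were used is not given in the sources used here. Transcripts absent from a list counted as 0. NCBI numbers were matched to RefSeq symbols (GRCm38.p6) for 5051 of 5059 genes. Estimated counts, rounded, of single forms and of the sum of all forms of a gene were tested in edgeR 4.0.16 under R 4.3.3 (glmQLFTest, TMM normalisation) over all features that reached 1 FPKM in at least 2 libraries. P-values were 2-sided and adjusted by Benjamini-Hochberg over all of them. The SE is the log2 fold change divided by the square root of F. Floors are 3 counts per library and, like all intervals of such reads, cover counting error alone. Alternatives were DESeq2 1.42.0, limma 3.58.1 on log2(FPKM + 0.5 or 0.1), RLE factors, 2 filters, a replicate block, each library left out and, added after seeing the data, implied library totals. The fits were tested on simulated counts. Genes were named by a rule: the 4 genes that the selection itself names, forms and sums with an unadjusted p under 0.05 and no overlap, genes listed in 1 group alone at 1 FPKM, the 3 most abundant per role and the 5 with most forms. Members, lists and rules were chosen with earlier results of these data known. GENCODE M21 gave lengths and the 50-base words shared between genes. The words are those of annotated transcripts, as the sequences of the listed forms are not given.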

Additional observations from a re-analysis of the deposited data

How the results depend on the processing

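No fold change of Cep85, Myl12a, Tuba1a, Dnah8 (sums and tested forms) or of the forms of Cep63, Cep295, Cep55 and Cep57l1 listed in 1 genotype alone reversed under the alternatives that gave a value: 165 stayed on the same side of the threshold and 18 passed it. The alternatives refit libraries already used in the main fit. Forms at 0 in both libraries of a group could not change sign, and groups that do not overlap left little room for it. The lack of reversals is therefore no independent support. With DESeq2 46 gene sums passed, 3 of them in the set, and 100 forms, 9 in the set. With limma at a pseudocount of 0.5 these were 5 and 2 for sums and 5 and 1 for forms. At a pseudocount of 0.1 there were 9 and 1 for sums and 0 for forms. Among features above 0 in all libraries 1 sum, that of Cep85, passed with edgeR, and 2 forms, 1 in the set. The cause of these differences was not tested. RLE factors, no filter, implied library totals and each library left out gave 0 for all 4 counts (range 0 to 0). A fit with a replicate block also gave 0 for each; no source says that equal numbers are paired, and the correlation of the differences between libraries 1 and 2 in the 2 genotypes was 0.127 over 3221 gene sums. Among the shares of forms, 24 moved by less than 1 SD when taken from counts and 4 by more. The Cep63, Cep295, Cep55 and Cep57l1 forms rest on between 28.0 and 126 counts in each library that lists them, and the part of depth was not tested.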
